A study of Danio rerio with 12 samples.

Results

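The 12-h component of pineal gene expression was measured in all 12 arrays of the series, which fall into 3 groups of 4 by circadian time (CT) modulo 12 h: CT2 with CT14, CT6 with CT18, and CT10 with CT22. RNA for each array came from 12 glands pooled at 1 time, taken from adult zebrafish 0.5 to 1.5 years old of both sexes. The fish carried Tg(aanat2:EGFP)Y8, in which the regulatory regions of aanat2 drive EGFP in the pineal gland so that the gland can be found under a fluorescent microscope. They had been raised in a 12-h light and 12-h dark cycle and were sampled every 4 h over 48 h of constant darkness, with no second genotype or treatment. The first array is CT14, and the 6 times CT14, CT18, CT22, CT2, CT6 and CT10 were each collected once in the first daily cycle and once in the second. A group of 4 thus holds opposite circadian times in both cycles, so a pure 24-h cosine cancels in its mean. A 24-h rhythm of another shape need not cancel. The spread within a group includes the difference between subjective day and subjective night.

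A cell or tissue that repeats a programme every 12 h shows it as peaks at opposite times of the circadian day. In mouse liver, genes of the unfolded protein response, of protein entry into the endoplasmic reticulum (ER) and of secretory traffic follow such a rhythm, with the transcription factor Xbp1 among its regulators. A 24-h rhythm that is not a pure cosine also holds a 12-h part, because a flat top, a sharp peak or a fast rise needs a second harmonic. The pineal gland of fish is itself a photoreceptive organ, in which a circadian clock drives the night-time synthesis of melatonin through aanat2. At a spacing of 4 h a period of 12 h cannot be told from one of 6 h.

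The component was tested as the 12-h cosine and sine together, with the 24-h cosine and sine in the same fit, on log2 quantile-normalized intensity. The fit covered 8292 probe sets with 1 gene symbol, which stand for 7260 genes, and a probe set was called at a Benjamini-Hochberg adjusted p under 0.05. No probe set was called for the 12-h terms (0% of those tested), and none at a false discovery rate of 0.10. The lowest adjusted p was 0.109, for bhlhe40, and the second lowest was 0.989. At an unadjusted p under 0.05, 200 probe sets (2.41%) passed for the 12-h terms, fewer than the 5% that evenly spread p-values would give. Without CT6 of the first cycle the count was 464 (5.59%), above that share, and in the other settings it was at most 4.48%. For the 24-h terms of the same fit, 22 probe sets were called (0.265%) and 765 (9.23%) had an unadjusted p under 0.05. A term of 8 h, added as the last that 6 times allow, gave 0 calls and 291 probe sets (3.51%) at an unadjusted p under 0.05.

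**Figure D1:**
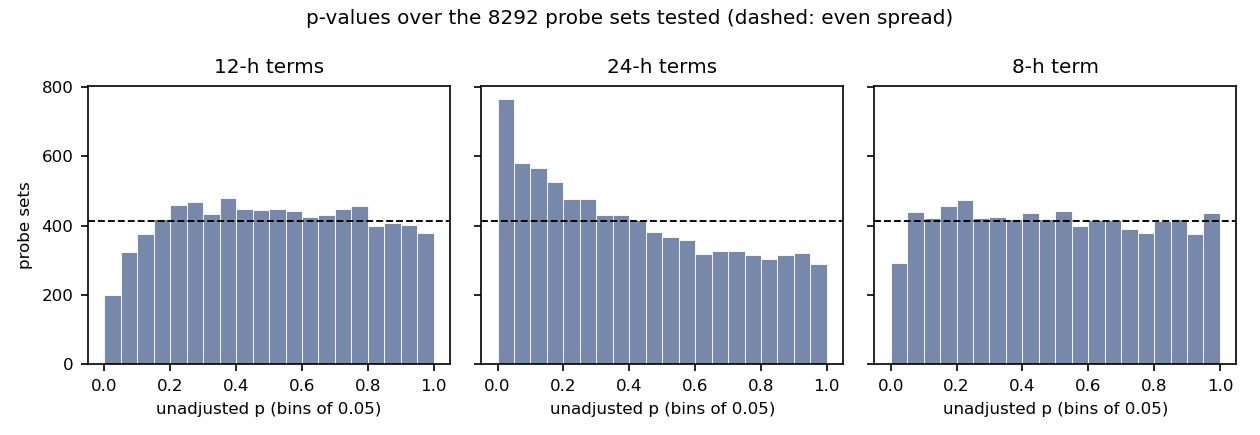
Number of probe sets (vertical axis) in bins of unadjusted p of width 0.05 (horizontal axis) for the 12-h terms, the 24-h terms and the 8-h term over the 8292 probe sets tested, with a dashed line where evenly spread p-values would lie. The lowest bin holds 200 probe sets for 12 h, 765 for 24 h and 291 for 8 h, so it stands above the line only for 24 h.

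The size of the component is given as the peak-to-trough fold of the fitted 12-h curve, a ratio that cannot be under 1 and that lies above 1 from error alone. Its median over the probe sets tested was 1.31, beside 1.39 for the 24-h curve, and 95% of the probe sets had a 12-h fold under 2.53. A difference between the means of a pair of groups had a median SE of 0.27 on the log2 scale. At that SE the 95% interval reaches 0.60 to each side, or 1.51-fold, before any adjustment for the number of probe sets. A call took a larger difference than that: kalrnb differed by -0.99 between CT10/CT22 and CT2/CT14 and was not called.

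The 3 groups were also set against each other with the same fitted terms. Between CT2/CT14 and CT6/CT18 no probe set was called (0%), and 103 (1.24%) were higher and 108 (1.3%) lower in CT2/CT14 at an unadjusted p under 0.05. Between CT6/CT18 and CT10/CT22 only bhlhe40 was called (0.0121%), and 142 (1.71%) were higher and 179 (2.16%) lower in CT6/CT18 without adjustment. Between CT10/CT22 and CT2/CT14 no probe set was called (0%), with 126 (1.52%) higher and 102 (1.23%) lower in CT10/CT22 without adjustment. The fitted 12-h peaks of all probe sets were spread almost evenly, with 34.3% nearest CT2/CT14, 31.5% nearest CT6/CT18 and 34.2% nearest CT10/CT22. Among the 200 probe sets with an unadjusted p under 0.05, 98 (49%) peaked nearest CT10/CT22, 54 (27%) nearest CT2/CT14 and 48 (24%) nearest CT6/CT18. The 4 arrays of a group lay all above or all below the other 8 arrays in 67 probe sets (0.808%), with CT10/CT22 above in 17 (0.205%) and below in 14 (0.169%). CT2/CT14 was above in 10 (0.121%) and below in 8 (0.0965%), and CT6/CT18 above in 10 (0.121%) and below in 8 (0.0965%).

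The 2 daily cycles gave the 12-h curve separately. Over the 8292 probe sets, which are not independent replicates, the cosine and sine terms of the first cycle correlated with those of the second at r = 0.05 for 12 h and r = 0.06 for 24 h. The 12-h peaks of both cycles lay within 2 h of each other in 34.1% of the probe sets, and the 24-h peaks within 4 h in 37.2%. Peaks unrelated between the cycles would give nearly the same share for 12 h and a slightly lower one for 24 h. A test of whether the 12-h terms differed between the cycles called no probe set (0%), with 175 (2.11%) at an unadjusted p under 0.05. Without CT18 of the second cycle that test called 73 probe sets, and without CT6 of the second cycle 1.

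The gene nearest to the threshold was bhlhe40, which encodes a basic helix-loop-helix repressor that acts on the E-box targets of the clock. Its intensity in the first cycle was 337 at CT14, 4434 at CT18, 3008 at CT22, 3106 at CT2, 1312 at CT6 and 124 at CT10. In the second cycle it was 363, 3189, 3599, 2806, 2253 and 226 at the same times. Intensity was thus high from CT18 to CT2, lower at CT6 and lowest at CT10 and CT14 in both cycles, a broad plateau with a narrower trough. The 12-h curve had a fold of 4.38, or 2.13 ± 0.26 (SE) on the log2 scale, and peaked at CT5.53 and 12 h later, with an SE of 0.23 h. The unadjusted p was 1.31e-05 and the limma adjusted p was 0.109.

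The same gene was called for 24 h, 21.3-fold and peaking at CT23.0, with a limma adjusted p of 4.06e-05. Its 12-h peaks fell 5.46 h before the 24-h peak and 12 h on from there, so that the 12-h curve was near its trough where the 24-h curve was highest. The mean intensity of bhlhe40 was 2797 ± 1330 (SD, n = 4) in CT6/CT18, 1653 ± 1510 in CT2/CT14 and 1739 ± 1820 in CT10/CT22, and the 3 groups overlapped. On the log2 scale and after the 24-h terms, CT6/CT18 was above CT10/CT22 by 1.78 (95% interval 1.28 to 2.27, limma adjusted p = 0.0391). CT2/CT14 minus CT6/CT18 was -1.32 (95% interval -1.82 to -0.83, limma adjusted p = 0.653). The call of the first contrast was lost without the 24-h terms, with circadian time as a factor, with the daily cycle as a block and without the variance trend. It was also lost without 10 of the 12 arrays in turn, and held without CT6 of the first cycle and without CT10 of the second. The 8-h term had a p of 0.88 for bhlhe40 in limma, and the difference of its 12-h terms between the cycles a p of 0.44.

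**Figure D2:**
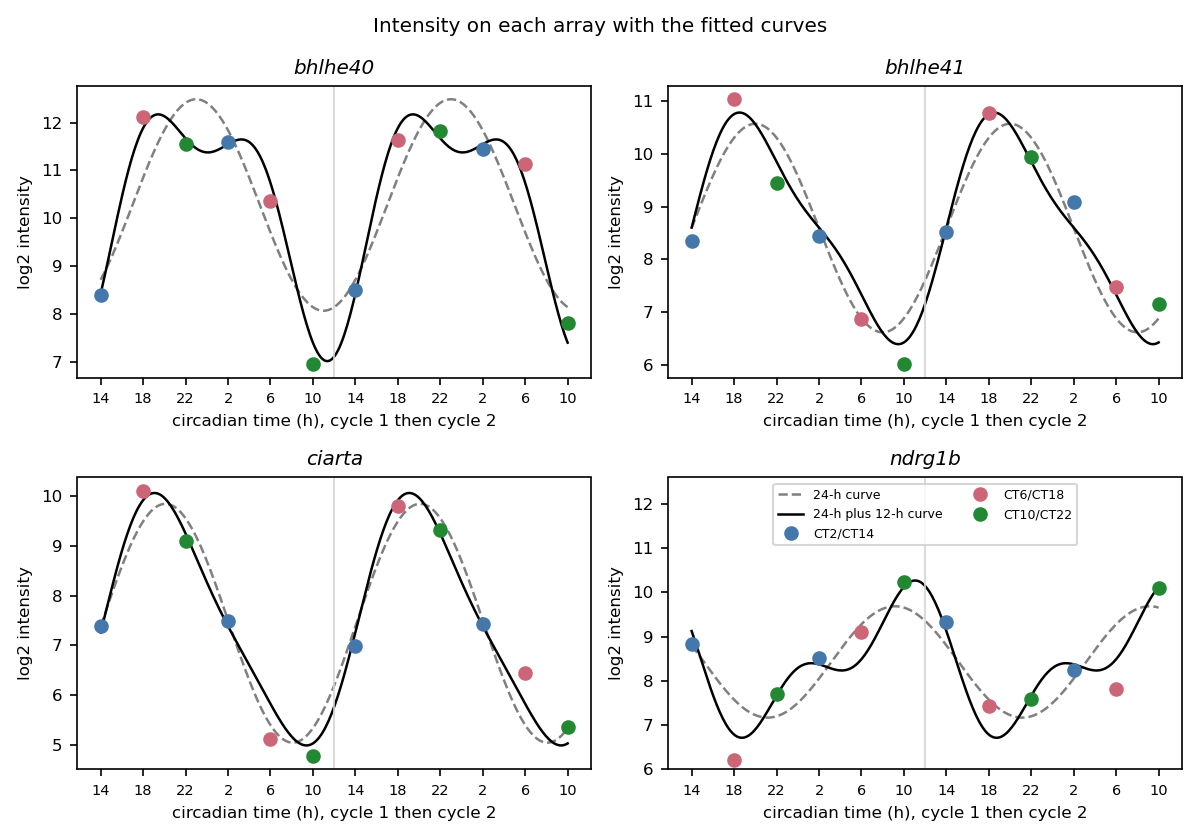
Log2 intensity of bhlhe40, bhlhe41, ciarta and ndrg1b on each of the 12 arrays (points, coloured by group of 4) against circadian time in h through both cycles, with the fitted 24-h curve (dashed) and the sum of the 24-h and 12-h curves (solid). For bhlhe40 the solid curve has a broad top from CT18 to CT2, is falling at CT6 and has a deeper trough at CT10 than the dashed one. For ciarta both curves lie close together.

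The related repressor gene bhlhe41 was also called for 24 h, 15.4-fold and peaking at CT20.0. In the order CT14 to CT10, its intensity was 327, 2092, 700, 350, 118 and 64.7 in the first cycle and 368, 1752, 976, 541, 178 and 143 in the second. In both cycles the gene was lowest at CT10, intermediate at CT14 and highest at CT18, and it declined over the 16 h after CT18. The rise was thus shorter than the decline. The 12-h curve was 2.06-fold and peaked at CT4.97 (SE 0.60 h), with an unadjusted limma p of 0.0265 and an adjusted p of 0.989. A similar course was measured for ciarta, which encodes a repressor of CLOCK and BMAL, with 169, 1106, 550, 179, 35 and 27.5 in the first cycle and 127, 898, 637, 173, 86.8 and 41.3 in the second. Its 24-h fold was 27.9, while the 12-h fold was 1.84 with a peak at CT5.53 and an unadjusted limma p of 0.0515.

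Of the 22 probe sets called for 24 h, 4 had an unadjusted p under 0.05 for the 12-h terms: bhlhe40, ndrg1b, mid1ip1l and bhlhe41. Over all 8292 probe sets tested, 200 (2.41%) had one. The median 12-h fold of the 22 was 1.59, beside 1.31 over all probe sets tested, and their median 24-h fold was 5.21. On the log2 scale the 12-h amplitude came to a median of 27.4% of the 24-h amplitude, from 9.01% for nfil3-5 to 63.0% for ndrg1b. In 10 of the 22 the nearest 12-h peak lay within 3 h of the 24-h peak, so that the 12-h part raises the curve at the time of that peak. In 12 it lay farther away, so that the 12-h part lowers the curve at that time. The height of the summed curve at other times was not compared. Peaks unrelated to the 24-h peak would fall on either side of that limit equally often. Many of these 12-h peaks were poorly determined, with an SE of 2.2 h for nfil3-5, and bhlhe41 lay close to the limit, at -3.04 h. The gene with the greatest 24-h fold among them was nfil3-5, which encodes a repressor of D-box elements, at 33.9-fold. Its intensity was 200, 46.1, 120, 285, 3808 and 1748 from CT14 onward in the first cycle and 609, 169, 145, 656, 1911 and 1986 in the second, with a 12-h fold of 1.37 and an unadjusted limma p of 0.695. On the log2 scale that 12-h part was 0.46 ± 0.53 (SE), so its size was poorly determined. The fold was 2.27 with a peak at CT8.24 in the first cycle and 1.21 with a peak at CT2.66 in the second. A large 24-h rhythm was therefore fitted with a 12-h fold of 1.37 in nfil3-5 and of 4.38 in bhlhe40.

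**Figure D3:**
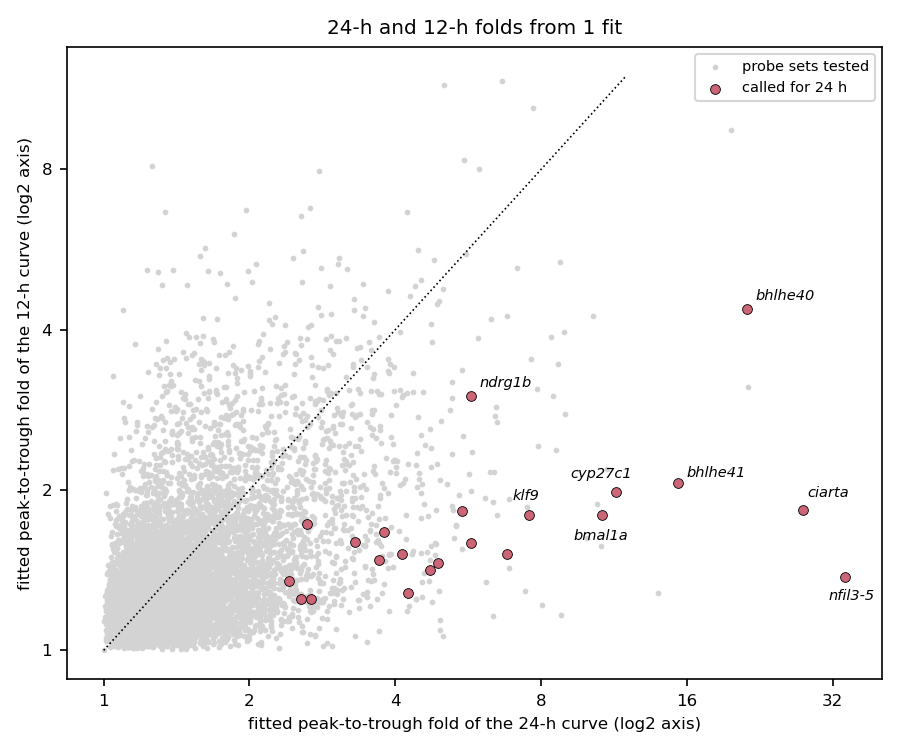
Fitted peak-to-trough fold of the 12-h curve (vertical axis, log2 spacing) against that of the 24-h curve (horizontal axis, log2 spacing) for the 8292 probe sets tested, with the 22 called for 24 h in red and a dotted line of equal folds. All 22 lie below the line, with bhlhe40 at 4.38-fold and ndrg1b at 3.01-fold the highest of them for 12 h.

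The gene ndrg1b, a member of the N-myc downstream regulated family, was the other gene called for 24 h among the 20 lowest 12-h p-values. Its intensity was 453 at CT14, 73.8 at CT18, 207 at CT22, 367 at CT2, 546 at CT6 and 1214 at CT10 of the first cycle, and 640, 173, 193, 305, 226 and 1095 in the second. CT10 was the highest of the 6 times in both cycles, a narrower peak than the plateau of bhlhe40. The 24-h fold was 5.74 with a peak at CT9.16, and the 12-h fold was 3.01 with a peak at CT11.8. The limma p of the 12-h terms was 0.0027 before adjustment.

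Core clock genes were measured by 12 of the 15 that have a probe set, and of accessory loop genes, the regulators that surround the core, by all 15. None was called for 12 h. One of the 12 core genes, cry2, had an unadjusted p under 0.05 in limma (0.0317), as did bhlhe40 and bhlhe41 of the 15 accessory genes. For cry2, which encodes a cryptochrome repressor, intensity in its brighter probe set was 474 and 496 at CT18 and between 125 and 303 on the other 10 arrays. Another probe set that the annotation also assigns to cry2 was called for 24 h with a fold of 5.73 and had a 12-h fold of 1.59. Older names divide these cryptochromes between several related genes, so whether both probe sets measure the same gene is not settled here. The 12-h fold of bmal1a, the activator partner of CLOCK, was 1.79 with an unadjusted p of 0.304, and that of nr1d2b, a nuclear receptor that represses bmal genes, was 1.52 with 0.184. The light-responsive per2 had a 12-h fold of 1.15 in its brighter probe set, with an unadjusted limma p of 0.764. In a dim probe set the fold was 2.9 and the unadjusted limma p 0.0277.

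The enzymes and precursors of melatonin synthesis gave no 12-h call and no unadjusted p under 0.05 in the 8 genes tested. For aanat2, the enzyme whose nightly rise sets melatonin output, intensity was 2253, 1919, 388, 583, 612 and 2001 from CT14 onward in the first cycle and 2658, 1935, 1663, 285, 539 and 1293 in the second. The gene was high at CT10, CT14 and CT18 in both cycles and also at CT22 of the second. Its 24-h fold was 6.38 with a limma adjusted p of 0.061, so that it was not among the 22 called, and its 12-h fold was 1.16 with an unadjusted limma p of 0.885. The probe set of camk1gb, a calcium/calmodulin-dependent kinase, carries no symbol in the annotation and was measured in the fit of all 11625 probe sets, where its 12-h fold was 1.69, with a limma adjusted p of 0.986, and its 24-h fold 5.03, with an adjusted p of 0.0252. Its intensity was 261, 894, 1940, 2400, 1620 and 795 from CT14 onward in the first cycle and 402, 583, 1630, 1770, 739 and 988 in the second, with the highest values at CT22 and CT2 in both cycles.

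The 20 genes with the lowest 12-h p were bhlhe40, kalrnb, id2b, atp1b1a, slc16a9a, fbxo44.5, stk35l, cnot3b, crx, ndrg1b, crtap, gadd45bb, tmem86b, ptk2bb, heatr5a, laptm4b, mrps10, rab3gap1, runx2a and smtnb. Since they were chosen by that p, their values are a description, and apart from bhlhe40 each had an adjusted p of 0.989. Their 12-h folds ran from 1.7 to 4.86 with a median of 2.48. With an offset of 32 added before log2, the 4 dimmest had folds lower by over 1.5 times, at 2.4 in place of 4.86 for cnot3b, 2.03 in place of 4.11 for tmem86b, 1.9 in place of 3.66 for rab3gap1 and 2.19 in place of 3.63 for heatr5a. Of the 20, 9 peaked nearest CT10/CT22, 6 nearest CT2/CT14 and 5 nearest CT6/CT18. In 6 of the 20 the 4 arrays of a group did not overlap the other 8, beside 67 of all 8292 probe sets (0.808%). Such a separation lowers the p by which the 20 were chosen, so this count is no separate result. Only 3 of the 20 had a 24-h fold above their 12-h fold, namely bhlhe40, id2b and ndrg1b.

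**Figure D4:**
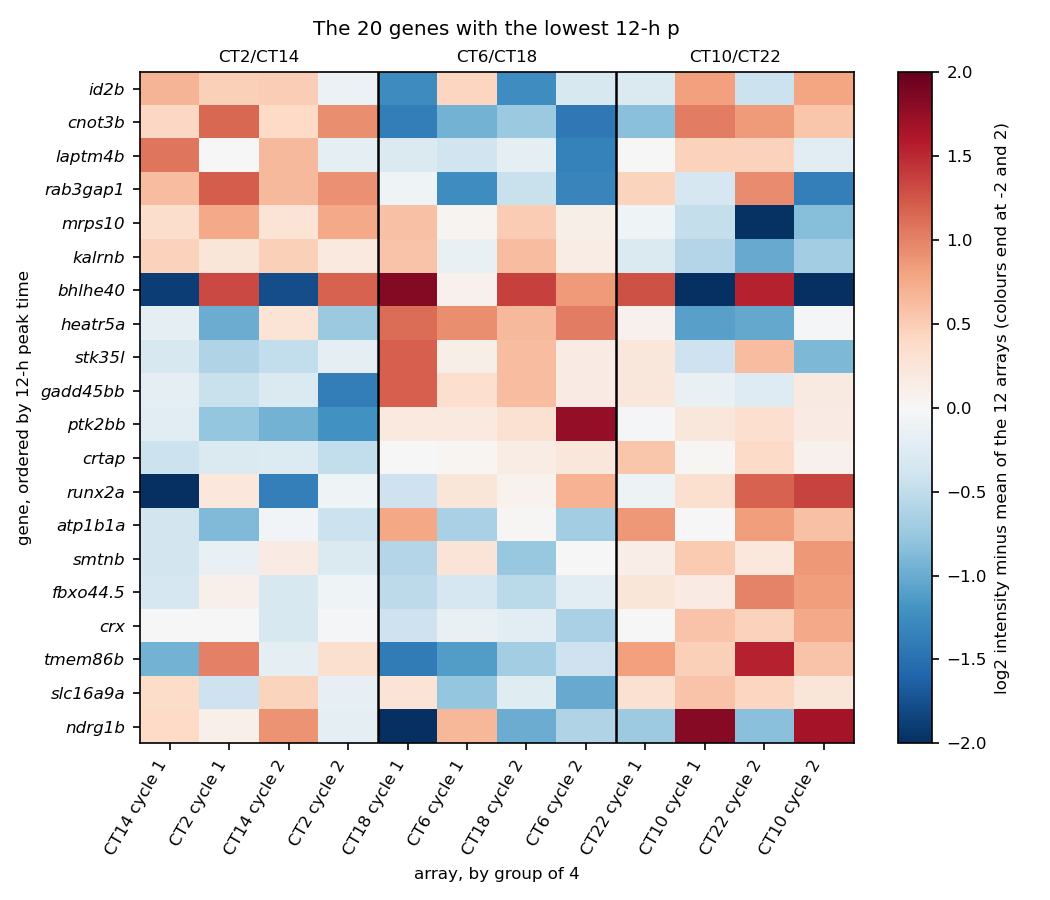
Log2 intensity minus the mean of the 12 arrays (colour) for the 20 genes with the lowest 12-h p (rows, ordered by 12-h peak time) on each array (columns, in 3 groups of 4). For crtap, ptk2bb and crx a whole group is lower or higher with little overlap, whereas for bhlhe40 and ndrg1b the arrays within a group differ as much as the groups.

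The lowest p after bhlhe40 belonged to kalrnb, which encodes kalirin. Its intensity was 118.8 at CT22 and 97.8 at CT10 of the first cycle and 73 and 90 in the second. The other 8 arrays lay between 132 and 225, so that all 4 arrays of CT10/CT22 were below the rest. The mean was 94.9 ± 19.0 (SD, n = 4) in CT10/CT22, 186 ± 19.3 in CT2/CT14 and 184 ± 44.6 in CT6/CT18. On the log2 scale CT10/CT22 minus CT2/CT14 was -0.99 (95% interval -1.42 to -0.55), while CT2/CT14 and CT6/CT18 differed by 0.04 (95% interval -0.39 to 0.48). The 12-h fold was 2.44 with a peak at CT3.93, the 24-h fold was 1.42, and the limma p was 0.000461 for 12 h and 0.131 for 24 h.

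The pineal and retinal transcription factor gene crx, which drives photoreceptor genes, was highest in CT10/CT22. Its intensity at CT22 and CT10 was 2562 and 3796 in the first cycle and 3506 and 4313 in the second. In CT2/CT14 it was 2575 and 2537 in the first cycle and 2044 and 2486 in the second, and in CT6/CT18 it was 1922, 2297, 2181 and 1634 in the order CT18 and CT6 of each cycle. Of the 4 arrays of CT10/CT22, 3 lay above all others, and CT22 of the first cycle lay just under the highest array of CT2/CT14. The mean was 3544 ± 735 (SD, n = 4) in CT10/CT22, 2411 ± 247 in CT2/CT14 and 2009 ± 295 in CT6/CT18. The 12-h fold was 1.93 with a peak at CT10.6, the 24-h fold was 1.17, and the limma p was 0.00267 for 12 h and 0.59 for 24 h. The 9 photoreceptor markers of the pineal gland, crx among them, had a mean deviation of 0.15 in CT10/CT22 and -0.15 in CT6/CT18 on the log2 scale. Without CT6 of the second cycle the latter was -0.01. Within CT10/CT22 this mean was -0.16 at CT22 of the first cycle and 0.15 to 0.35 on the other 3 arrays. In a pool of whole glands, fewer cells of a type and less RNA per cell cannot be told apart.

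The ion pump subunit gene atp1b1a, the beta chain of the sodium-potassium ATPase, was measured by both of its probe sets at about the same time. In the brighter one, intensity in CT10/CT22 was 3342 and 1832 at CT22 and CT10 of the first cycle and 3265 and 2762 in the second, against 995 to 1767 in CT2/CT14. CT6/CT18 held 3154 at CT18 of the first cycle and 1130 to 1875 on its other arrays, so it overlapped both. The 12-h fold was 2.28 with a peak at CT9.44 in this probe set and 1.93 with a peak at CT9.64 in the other, with unadjusted limma p-values of 0.000993 and 0.0302. The same held for id2b, which encodes a helix-loop-helix protein that binds no DNA and blocks its partners. Its brighter probe set had a 12-h fold of 2.31 with a peak at CT0.30, and its second probe set 1.73 with a peak at CT0.19 and an unadjusted limma p of 0.0472. Its intensity was lowest at CT18 in both cycles, at 483 and 489, and between 857 and 2041 on the other 10 arrays. The low CT18 was not matched at CT6, where it was 1567 and 930, so the group CT6/CT18 held both low and high values.

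For 7 of the other genes among the 20, a second probe set of the same gene did not have a low 12-h p. These were fbxo44.5, cnot3b, heatr5a, laptm4b, ptk2bb, runx2a and stk35l, whose other probe sets had unadjusted limma p-values of 0.281 to 0.998. The second probe set of cnot3b, a subunit of the CCR4-NOT deadenylase, had its 12-h peak at CT9.84 against CT0.31 in the first, and that of fbxo44.5 at CT1.03 against CT10.5. In the other 5 genes the peaks lay nearer to each other, at CT8.88 against CT8.69 for runx2a, CT11.8 against CT0.40 for laptm4b, and CT5.41 against CT6.58 for stk35l. They were CT6.2 and CT6.1 against CT7.4 for ptk2bb and CT8.52 against CT5.87 for heatr5a. At p-values this high the peak times of the other probe sets are poorly determined, and that of runx2a had a 12-h fold of 1.04. The other probe sets of stk35l and heatr5a and the CT6.2 probe set of ptk2bb were dim, with mean log2 intensities of 3.75, 4.25 and 4.33. For fbxo44.5, a member of the F-box family, the 4 arrays of CT10/CT22 in the chosen probe set read 250, 235, 418 and 377, all above the 145 to 226 of the other 8. The other probe set of fbxo44.5 was brighter and had a 12-h fold of 1.26. That of laptm4b was brighter too, at a mean log2 intensity of 11.3 against 9.15, with a 12-h fold of 1.44. For cnot3b the other probe set was about as bright as the chosen one, at 5.67 against 5.54. So was the CT6.1 probe set of ptk2bb, at 6.78 against 6.96, with a 12-h fold of 1.21. That of runx2a was dimmer, at 5.05 against 6.69. For 4 of the 20 (cnot3b, tmem86b, heatr5a and rab3gap1) the geometric mean intensity was under 64, where the medians of the deposited arrays lay between 71.0 and 95.4.

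For crtap, part of the complex that modifies collagen prolines, intensity was lowest in CT2/CT14, with 822, 908, 915 and 786 in the order CT14 and CT2 of each cycle. The other 8 arrays lay between 1111 and 1634, so CT2/CT14 did not overlap them, while CT6/CT18 and CT10/CT22 overlapped each other. The mean was 858 ± 63.9 (SD, n = 4) in CT2/CT14, 1194 ± 86.0 in CT6/CT18 and 1345 ± 239 in CT10/CT22. The fold of its 12-h curve, 1.70, was the lowest of the 20, and its spread within groups was small. Its 12-h peak was at CT8.46, and the limma p was 0.0031 for 12 h and 0.383 for 24 h.

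The monocarboxylate transporter family gene slc16a9a gave 819, 985, 894 and 783 in CT10/CT22, in the order CT22 and CT10 of each cycle. In CT2/CT14 it gave 858, 497, 904 and 592, with CT14 above CT2 in both cycles, and in CT6/CT18 it gave 802, 390, 562 and 329, with CT18 above CT6 in both. CT6 was thus the lowest time in both cycles, and its 24-h fold of 1.90 was near its 12-h fold of 1.94. The kinase gene stk35l likewise had folds near each other, at 2.1 for 24 h and 2.13 for 12 h, with 603 and 404 at CT18, 288 and 295 at CT6 and 175 to 231 in CT2/CT14.

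Among the stress and signalling genes of the 20, gadd45bb, a growth arrest and DNA damage inducible gene, was lowest in CT2/CT14. It gave 66.5, 56.0, 62.6 and 29.2 there, 175, 96.5, 117 and 85.7 in CT6/CT18, and 64 to 88.9 in CT10/CT22. The tyrosine kinase gene ptk2bb gave 53.9 to 108 in CT2/CT14 and 122 to 157 in CT10/CT22, and in CT6/CT18 it gave 143, 143, 154 and, at CT6 of the second cycle, 421. The 4 arrays of CT2/CT14 lay below the other 8, and the high value of CT6 of the second cycle raised the mean of its group to 215 ± 137 (SD, n = 4). The mitochondrial ribosomal gene mrps10 gave 128, 96.9, 34.4 and 75.3 in CT10/CT22 against 141 to 228 on the other 8 arrays. It was the only one of the 20 whose 24-h fold, 1.04, was under 1.1, and its 12-h fold was 3.27. That fold was 1.99 in the first cycle and 5.42 in the second, and it was 2.1 without CT22 of the second cycle and 2 without the last 4 arrays.

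Genes of the programmes that run with 12 h in mouse liver were then followed as lists. The lists are described by counts, beside 179 of the 7260 genes (2.47%) with an unadjusted p under 0.05 and a median 12-h fold of 1.3 over all genes. In the unfolded protein response and ER protein folding list, 44 of 49 genes were tested, and 0 had an unadjusted p under 0.05 in limma, with a median fold of 1.22. In ER translocation 2 of 28 had one, spcs2 and ostc, and in ER to Golgi traffic 0 of 51, with median folds of 1.27 and 1.18. All 3 lists thus had a median fold under that of all genes, as did several of the other gene lists below, so this was not particular to them.

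The chaperone genes hspa5 and hsp90b1 and the transcription factor gene xbp1, hallmarks of the unfolded protein response, were singled out after their values were seen. The intensity of hspa5 was 602, 623, 562, 405, 277 and 363 from CT14 onward in the first cycle and 353, 276, 264, 376, 305 and 312 in the second, so its highest values were the first 3 of the series. Its mean was 434 ± 114 (SD, n = 4) in CT2/CT14, 371 ± 169 in CT6/CT18 and 375 ± 131 in CT10/CT22. The difference of CT2/CT14 from CT6/CT18 was 0.29 on the log2 scale, with a 95% interval from -0.36 to 0.93. For xbp1 the mean was 379 ± 123, 416 ± 85.7 and 358 ± 73.3 in the same order, and CT6/CT18 minus CT10/CT22 was 0.22 (95% interval -0.41 to 0.85). For hsp90b1 the 12-h fold was 1.1, and the 3 differences between its groups ran from -0.11 to 0.09 on the log2 scale, with 95% intervals reaching from -0.88 to 0.86. A difference of 0.60, the reach of a typical interval, lay within the intervals of hsp90b1 in either direction. The intervals given above for hspa5 and xbp1 held it in the positive direction, and other contrasts of both genes held it in the negative direction. For hspa5, CT10/CT22 minus CT2/CT14 was -0.24 (95% interval -0.88 to 0.41). For xbp1, CT2/CT14 minus CT6/CT18 was -0.18 (95% interval -0.81 to 0.45).

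The subunit gene spcs2 of the signal peptidase complex, which trims proteins that enter the ER, read 407, 444, 512 and 442 in CT2/CT14, in the order CT14 and CT2 of each cycle. The other 8 arrays lay between 223 and 404, all below these 4. Its 12-h fold was 1.69, with an unadjusted limma p of 0.0184. The gene ostc, for a subunit of the complex that attaches sugars to such proteins, was likewise highest in CT2/CT14, at 67.0 to 92.3 against 31.0 to 59.7 on the other arrays, with a fold of 1.98 and an unadjusted limma p of 0.0388. Both peaked between CT1 and CT3 by the fitted curve, at CT1.62 and CT2.49. Over the whole ER translocation list, 12 of 28 genes peaked nearest CT2/CT14, 10 nearest CT6/CT18 and 6 nearest CT10/CT22.

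The cytosolic heat shock and chaperone list had 1 of 47 genes with an unadjusted p under 0.05, ahsa1a, an activator of Hsp90, with 14.2 to 33.5 in CT10/CT22 and 27.7 to 74.4 on the other arrays. Its 12-h fold was 3.52, with an unadjusted limma p of 0.01. For metabolism, 0 of 12 genes of cholesterol synthesis, 0 of 26 of glycolysis and 0 of 78 subunits of oxidative phosphorylation had an unadjusted p under 0.05, with median folds of 1.37, 1.27 and 1.19. The proteasome gave 0 of 47 and a median of 1.21, and splicing factors 1 of 115 (ddx46) with a median of 1.2. Mitochondrial ribosomal proteins gave 2 of 57 (mrps10 and mrps34) and ribosome biogenesis 2 of 85 (surf6 and nop14).

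The cytosolic ribosomal proteins gave 1 of 74, rps7, with a median fold of 1.2. By the fitted curve 49 of the 74 peaked nearest CT6/CT18, where their mean deviation was 0.07 on the log2 scale. This rested on CT6 of the second cycle, at 0.47, and without that array the mean of the group was -0.06. Immediate early genes, which are transcribed within minutes of a stimulus, had 2 of 46, gadd45bb and ccn2a, and a median fold of 1.62. Of the 46, 27 peaked nearest CT6/CT18, where CT18 of the first cycle stood at 0.82 and CT6 of the first cycle at -0.46. Genes of phototransduction and the outer segment had 1 of 36, rcvrn2, which encodes a recoverin, at 1565 to 2644 in CT2/CT14, 1051 to 2145 in CT6/CT18 and 1286 to 2191 in CT10/CT22.

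**Figure D5:**
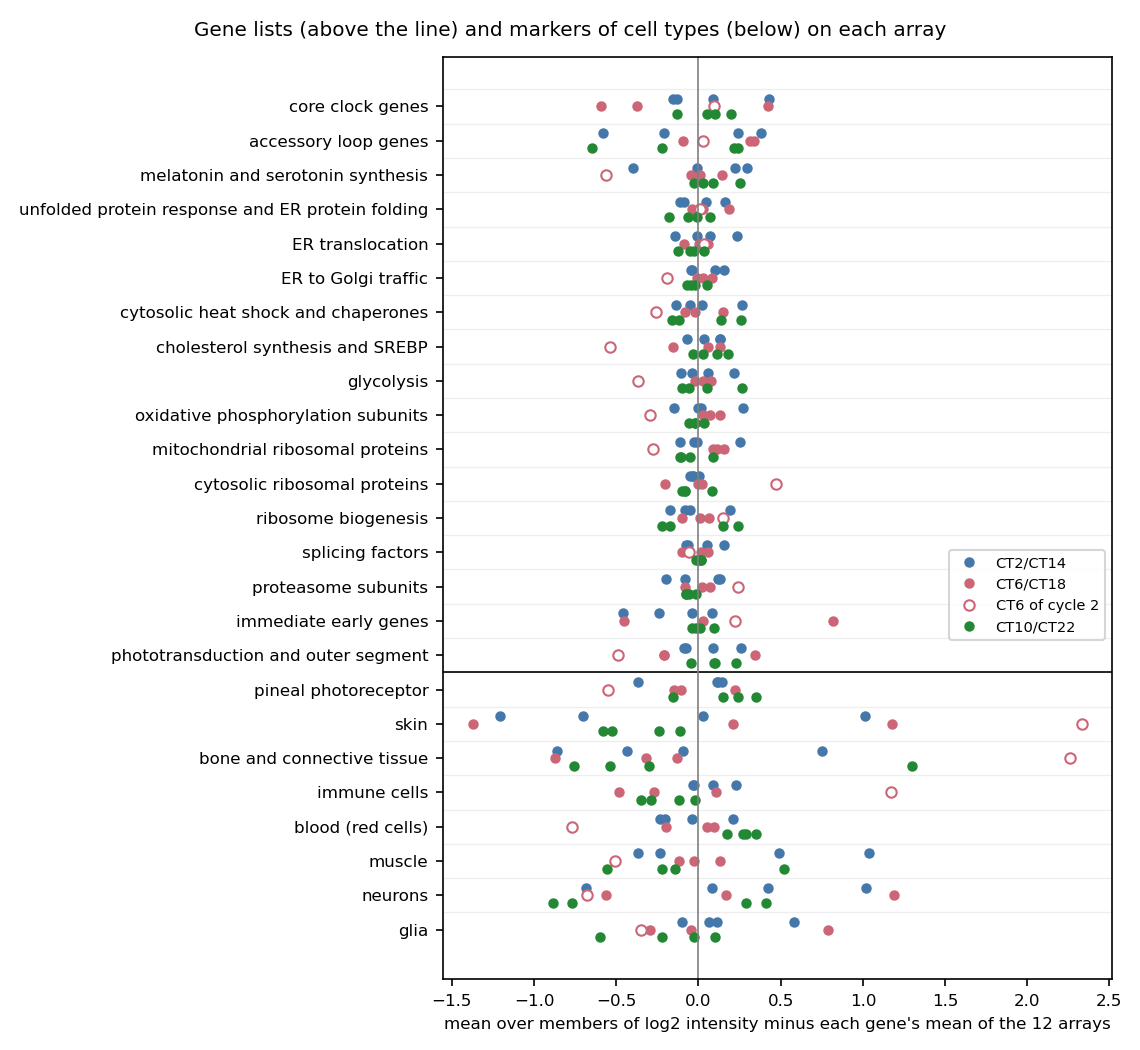
Mean over the members of each list of the log2 intensity minus the gene's mean of the 12 arrays (horizontal axis) on each array, coloured by group of 4, for 17 gene lists (above the line) and 8 lists of cell type markers (below). The open circle, CT6 of the second cycle, lies at 2.33 for skin, 2.26 for bone and connective tissue and 1.17 for immune cells, and the ER lists lie between -0.19 and 0.23 on every array.

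Markers of other tissues stood apart on single arrays. Of 27 skin markers 25 peaked nearest CT6/CT18, and their mean deviation there was 0.59, with 2.33 at CT6 and -1.37 at CT18 of the second cycle. Without CT6 of the second cycle it was 0.01. Of 13 markers of bone and connective tissue 10 peaked there, with a mean of 0.24 that became -0.44 without that array. Neuron markers peaked nearest CT2/CT14 in 13 of 15 genes, with array means from -0.69 to 1.02 within that group. Muscle markers peaked nearest the same group in 12 of 16, with 1.04 at CT14 of the first cycle, and glia markers in 10 of 15, while 9 of 16 immune markers peaked nearest CT6/CT18. None of the skin, immune, muscle, neuron and glia markers had an unadjusted p under 0.05 in limma, and of the bone markers 1 had one, runx2a. Red cell markers peaked nearest CT10/CT22 in 10 of 12, with array means of 0.18 to 0.35 in that group, -0.23 to 0.21 in CT2/CT14 and -0.77 to 0.09 in CT6/CT18. Among them slc4a1a, the anion exchanger of red cells, gave 246, 237, 232 and 199 in CT10/CT22 and 74.6 to 243 on the other arrays, with a 12-h fold of 2.47 and an unadjusted limma p of 0.00986. The part of these cells in the 12-h values of other genes was not tested.

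The pineal markers had a median of 1140 over the 9 genes, each taken as its geometric mean over the 12 arrays. Among them rom1b was dim, at 46.2 to 112. Arrays correlated with the other 11 at a mean r between 0.86 and 0.91, lowest for CT6 of the second cycle. On the last 4 arrays, CT22 to CT10 of the second cycle, the hybridization controls had a geometric mean of 1080 to 1920, against 666 to 896 on the others. These 4 arrays hold all 3 groups, but not equally: CT22 and CT10 both belong to CT10/CT22, CT2 to CT2/CT14 and CT6 to CT6/CT18. With them as a batch, bhlhe40 was called for the 12-h terms with a limma adjusted p of 0.0331 and a fold of 4.71, and over the other 29 settings its adjusted p ran from 0.0699 to 0.999 and its fold from 3.74 to 5.04. Its peak stayed between CT5.17 and CT5.71 in all 30.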

How the data were processed

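RNA of zebrafish pineal glands, in pools of 12, was measured on 12 Affymetrix arrays with the 2-cycle labelling protocol. The authors deposited 1 table of linear signal intensity with 15502 probe sets and 115 control probe sets, made with GCOS per the Methods and with MAS5 named in the submitters' processing notes, without versions. The table is not log-transformed, and without scanner files or detection calls the background of a probe set is not known here. The number of arrays limits the precision. Each circadian time has 1 pool per cycle, so the spread combines pools, days and hybridizations. In the main fit it also holds any 8-h part of the course, which that fit leaves out. The p-values measure only that spread.

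Controls were left out, the log2 of each intensity was taken and normalized by quantiles, and 11625 probe sets remained after those with their maximum among the lowest 25% of values were dropped. Through the platform's annotation, 10795 probe sets had 1 gene symbol, 135 several and 4572 none, and 38 symbols were updated. The 8292 remaining probe sets with 1 symbol were fitted with limma 3.58.1 in R 4.3.3: 12-h and 24-h cosine and sine, 7 residual degrees of freedom, moderated F tests with a variance trend, Benjamini-Hochberg adjustment. Group differences are contrasts of the 12-h terms, and the comparison of the cycles added the cycle and its interaction with the 12-h terms, with 4 residual degrees of freedom. The fit was tested on simulated data with independent errors, which hold no effect that many genes share on an array. That test therefore does not show how the fit behaves under such effects.

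Genes named are the 20 with the lowest 12-h p, by the probe set with the lowest p, in each list at most 3 more by the same order of p, at the brightest probe set, all clock genes tested, aanat2 and camk1gb, and mid1ip1l as 1 of the genes called for 24 h. Members and lists were chosen with earlier results of these data known. Gene lists numbered 17 and marker lists 8. Alternatives covered normalization, filter, offset, variance model, 24-h terms, circadian time as 6 levels, a block for the daily cycle, the last 4 arrays, a linear trend, and each array left out. Matched sequences were not used here.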

Additional observations from a re-analysis of the deposited data

Results flagged for a closer look

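Within the 3 groups of 4 arrays, 135 sets of 4 values were examined for 1 array far from the other 3, covering the 20 genes with the lowest 12-h p and the 25 lists, and 5 were found, where chance gives about 1 in 20. The figure beside each is the gap to the nearest array divided by the range of the 4. CT6 of the second cycle stood apart from the rest of CT6/CT18 for ptk2bb (0.93, at 8.72 against 7.16 to 7.27 log2 intensity). It also stood apart there for the mean deviation of the mitochondrial ribosomal proteins (0.849, at -0.28 against 0.09 to 0.15). In CT2/CT14, CT14 of the second cycle was apart for crx (0.848, at 11.00 against 11.28 to 11.33 log2 intensity). In the same group CT2 of the second cycle was apart for the pineal photoreceptor markers (0.932, at -0.37 against 0.11 to 0.15). In CT10/CT22, CT10 of the second cycle was apart for the cytosolic ribosomal proteins (0.881, at 0.08 against -0.10 to -0.08).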

How the results depend on the processing

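Over the alternatives run, the 12-h terms called 0 probe sets except with the last 4 arrays as a batch, where 1 (bhlhe40) was called, and the contrasts of CT2/CT14 with either other group called 0 throughout. The count at an unadjusted p under 0.05, 200 in the fit reported, was 310 over all probe sets, 321 without a filter, 124 with a filter at 50%, and 151 to 464 with 1 array left out (464, or 5.59% of the probe sets, without CT6, 359 without CT22 of the first cycle, 372 without CT18 of the second). The 1 call between CT6/CT18 and CT10/CT22 became 0 over all probe sets, without the variance trend, without the 24-h terms, with circadian time as a factor, without the last 4 arrays, and with the daily cycle as a replicate block, alone, with time as a factor or without CT6 of the second cycle. With 1 array left out it was 0 to 1. Calls for 24 h, 22 in the fit reported, were 41 over all probe sets, 44 at a false discovery rate of 0.10, 14 with time as a factor, 14 with a linear trend, 9 without the variance trend, 7 without the last 4 arrays, 39 without CT6 of the second cycle under the replicate block, and 8 to 25 with 1 array left out. The difference between the cycles called 0 to 73 with 1 array left out, 73 without CT18 and 1 without CT6 of the second cycle. The causes were not tested.

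The daily cycle was used as the replicate block. Deviations of the arrays of a cycle correlated between -0.31 and 0.24 over 15 pairs of times, 4 of them over 0.1. No pairing by cycle common to all times was thus seen. An effect shared by only some arrays of a cycle was not tested by these correlations. With the daily cycle as a replicate block the 12-h terms called 0 probe sets, with 223 at an unadjusted p under 0.05. The fits that join this block with another change were chosen after seeing the data. None of the 20 genes moved its 12-h peak by over 3 h under any alternative. They were chosen for a low p in the fit reported, and the alternatives reuse most or all of the same arrays. Their stable peak times are therefore no separate result.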
